A study of Gallus gallus with 6 samples.

Results

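Chromosome 3 is one of the large chromosomes of the chicken, and 3783 of the 37420 genomic regions in which TCF21 was found in every peak list of this series lie on it. A region is a stretch in which peaks of different lists overlap by at least 1 bp, and it was kept where all 3 lists gave a peak. The chromosome was cut at position 60400000 by the midpoint of each region. The left segment, from the start of the chromosome to the cut, held 2430 regions, and the right segment, from the cut to the end of the last peak at 111278833, held 1353 regions on 50.9 Mb. The cut was placed where the input level of the same lists drops, so the input level and the fold enrichment, which contains it, are described across the cut with no test. The pileup also enters the computation of the input level, so its tests across the cut are not independent of how the cut was placed.

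TCF21 is a basic helix-loop-helix transcription factor that pairs with another protein of its class and recognises short E-box motifs. It marks fibroblast-like precursor cells of mesodermal tissues in mammals and has been studied in chicken as a regulator of fat cell precursors. Chromatin immunoprecipitation followed by sequencing measures where such a factor sits on DNA, and input DNA, sequenced without the immunoprecipitation, gives the local background.

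All 6 samples are preadipocytes derived from chicken adipose tissue that stably overexpress TCF21 (LV-TCF21), treated with 300 µM oleic acid for 24 h. An antibody against the HA tag was used for the 3 immunoprecipitated samples, and the other 3 are input DNA without an antibody. Cells without the construct were not analysed here, so the occupancy is that of an overexpressed factor. No label states that samples of a kind came from separate cultures, so an SD over lists is the spread between these samples and may be technical. Each immunoprecipitation gave a peak list, named by the number in its peak names, and lists 1, 2 and 3 held 59501, 55895 and 57436 peaks, of which 6060, 5553 and 5733 lie on chromosome 3. The sources used here do not name the genome build behind the positions, total read numbers are unknown, and no gene or sequence was assigned to a position.

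TCF21 regions were denser in the left segment of chromosome 3. There were 40.2 regions per Mb in the left segment and 26.6 in the right segment, a ratio of 1.51. The 95% exact binomial interval from the counts was 1.41 to 1.62. It covers counting error only and takes regions as independent. The regions are clustered, so this interval is too narrow. On the other autosomes together the density was 37.5 regions per Mb over 820 Mb, between the values of the segments. The separate lists gave the same order. List 1 had 63.9 peaks per Mb in the left segment and 43.3 in the right, list 2 had 59.1 and 39.0, and list 3 had 58.0 and 43.8. The means were 60.3 ± 3.13 and 42.0 ± 2.62 peaks per Mb (SD, n = 3), and the lowest left value was above the highest right value. The ratio within a list averaged 1.44 ± 0.101 and was above 1 in 3 of 3 lists (exact two-sided sign-flip permutation test over lists, p = 0.25, the smallest value that 3 lists allow). The regions covered 24.7 kb per Mb of the left segment and 15.7 kb per Mb of the right segment.

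**Figure D1:**
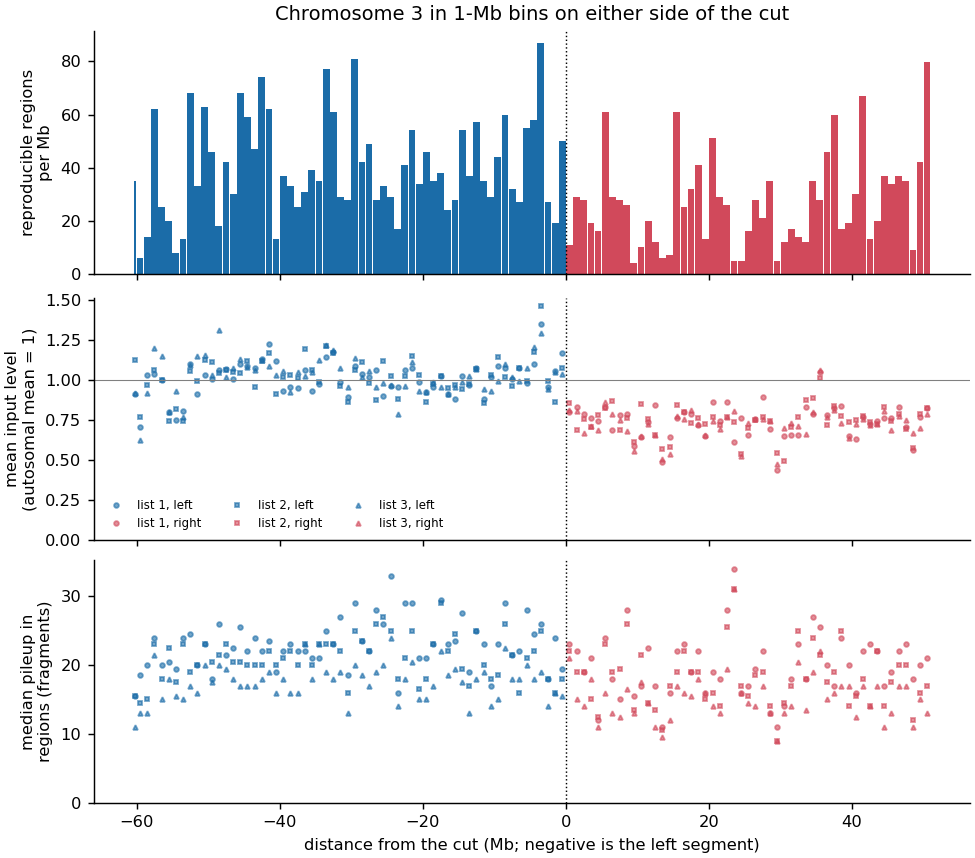
Reproducible regions per Mb (top), mean input level of the peaks relative to the autosomal mean (middle) and median summit pileup of the regions in fragments (bottom) in 1-Mb bins, against distance from the cut in Mb. Blue is the left and red the right segment, and circles, squares and triangles are lists 1, 2 and 3. The input level changes at the cut in all 3 lists, while region density varies widely between bins of both segments and is 79.7 per Mb in the short bin at the right end.

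Density also varied widely within each segment. In 12 full bins of 5 Mb counted leftward from the cut it had a lowest value of 25.4, a median of 41.6 and a highest value of 51.0 regions per Mb. In the 10 full bins counted rightward the lowest, median and highest values were 11.0, 26.4 and 34.4 regions per Mb. Of the left bins, 9 of 12 were denser than every right bin, and 5 of 10 right bins were less dense than every left bin. The bin next to the cut on the left, 55400001 to 60400000, had 48.2 regions per Mb, and its neighbour on the right, 60400001 to 65400000, had 20.6. The sparsest bin of the chromosome was at 70400001 to 75400000, with 11.0 regions per Mb and with 17.4, 16.2 and 22.8 peaks per Mb in lists 1, 2 and 3.

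The right end of the chromosome was the densest stretch of its segment at this length. The last 0.879 Mb, from 110400001 on, held 70 regions, or 79.7 per Mb. The densest full bins of 1 Mb held 87 and 81 regions in the left segment and 67 in the right. Peaks in this last stretch numbered 114, 107 and 110 per Mb in lists 1, 2 and 3. The median pileup of its regions was 21, 17 and 13 fragments in the 3 lists, near the medians of the whole right segment. Over all peaks of this stretch the input level was 0.812 ± 0.0205 times the autosomal mean (SD, n = 3). At the left end the first 0.4 Mb held 14 regions, or 35.0 per Mb, within the range of the left bins.

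In classes set at fixed pileups, regions with tall summits differed most in density between the segments. Such classes cannot separate an excess of tall summits from a pileup that is higher throughout. The pileup at a summit is the number of fragments stacked there, as deposited. The 10 regions of chromosome 3 with the highest mean pileup all lay in the left segment, as did 42 of the highest 50 and 77 of the highest 100, while the left segment held 64.2% of all the regions. Regions with a mean pileup of at least 60 fragments numbered 296 in the left segment and 105 in the right segment, or 4.90 and 2.06 per Mb, a ratio of 2.37. Regions with a mean pileup under 15 fragments numbered 717 and 542, or 11.9 and 10.7 per Mb, a ratio of 1.11. The classes from 15 to 30 and from 30 to 60 fragments lay between these, with ratios of 1.70 and 1.67. Shares over the whole series are not given for these pileup classes. The class of at least 60 fragments held 12.2% of the left regions and 7.76% of the right ones. By fold enrichment, which divides by the local control, the segments were closer. There, 22.6% of the left and 20.9% of the right regions reached 10 in all 3 lists. The part of the background in the ratio of 2.37 was not tested.

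With each list's own pileup in place of the mean, the lowest class kept the lowest ratio and the highest class the highest in every list, while the order of the middle classes differed between lists. For regions of at least 60 fragments the ratio was 2.69, 2.30 and 2.54 in lists 1, 2 and 3, with a mean of 2.51 ± 0.196 (SD, n = 3). For regions under 15 fragments it was 1.04, 1.10 and 1.20, with a mean of 1.11 ± 0.0835. The values of the lists for these classes did not overlap. Regions with a mean pileup of at least 60 fragments were denser along most of the left segment. Its full 5-Mb bins held 2.80 to 7.20 such regions per Mb, with a median of 4.70. Those of the right segment held 0.600 to 3.40, with a median of 2.20. Of the full left bins, 10 of 12 exceeded every full right bin. The short bin at the right end held 4 such regions, or 4.55 per Mb, within the range of the left bins.

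**Figure D2:**
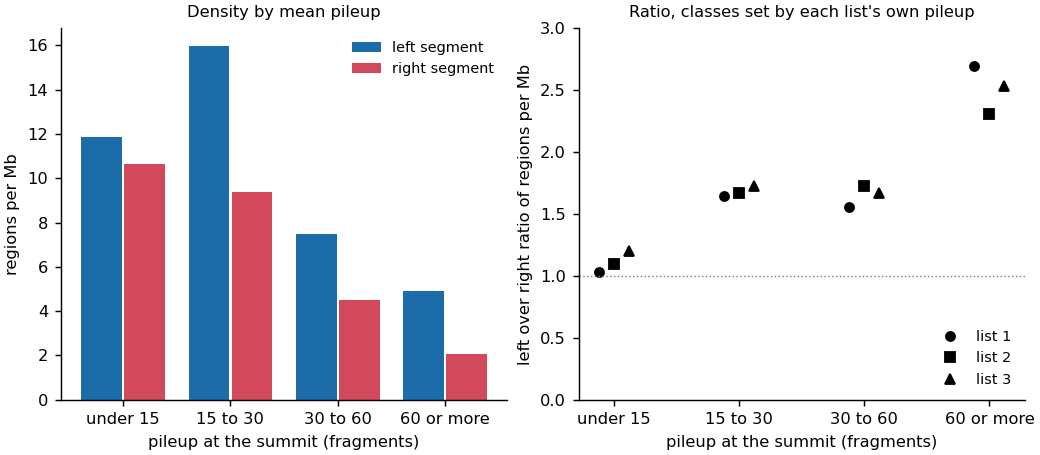
Left panel: reproducible regions per Mb in the left (blue) and right (red) segment, by class of mean summit pileup in fragments. Right panel: the left over right ratio of regions per Mb for each list, with classes set by that list's own pileup and a dotted line at 1. The class under 15 fragments lies between 1.04 and 1.20, and the class of 60 or more between 2.30 and 2.69.

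The typical pileup was also higher in the left segment. The median over the regions was 23, 21.5 and 18 fragments in the left segment in lists 1, 2 and 3, against 20, 18 and 15 fragments in the right segment. Within each list the left segment was higher, by a ratio of 1.18 ± 0.0274 (SD, n = 3, higher in 3 of 3 lists, exact sign-flip permutation p = 0.25). Between lists the values overlapped, since list 3 in the left segment matched list 2 in the right. Lists differ in an unknown sequencing depth. A ratio within a list takes out a common scale, but not the effect of depth or of the local background on which peaks were called. The pileup enters the computation of the input level that set the cut, so this test gives no independent support for a difference. The part of the background in the pileup ratio was not tested. The ratio was not the same along the distribution: it was 1.29 ± 0.0361 at the 10th percentile, 1.20 ± 0.0293 at the 75th, 1.36 ± 0.0375 at the 90th and 1.25 ± 0.00549 at the 99th, with no steady rise toward the tallest summits. The smallest pileup of a peak was 4, 4 and 3 fragments in both segments, and the 5th percentile was 7, 7 and 5 fragments in the left segment and 6, 6 and 4 in the right. With peaks of 6 fragments or fewer left out before joining, the ratio of medians was 1.11 ± 0.0177.

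The strongest regions of the left segment stood out by pileup in every list. The region at 10086542 to 10087405 had 235, 221 and 204 fragments in lists 1, 2 and 3, and it was the highest of chromosome 3 by mean pileup, 220 ± 15.5 (SD, n = 3), and by mean fold enrichment, 71.8 ± 19.0. The region at 4297328 to 4298347 had 218, 210 and 205 fragments, and its summits in the 3 lists lay within 5 bp. The region at 45302219 to 45303432 had 215, 203 and 190 fragments. List 3 was higher at the second of these than at the first and list 1 was not, so their order is not resolved. The region at 12675434 to 12677605 had 198, 206 and 194 fragments and a mean fold enrichment of 70.3 ± 11.9. In list 2 its fold enrichment was 76.5, against 50.3 at the region at 10086542. Lists 1 and 3 put the region at 10086542 higher, so their order by fold enrichment is not resolved. The region at 19216567 to 19218097 had 188, 194 and 181 fragments. The region at 34464877 to 34465847 was among the highest 3 by fold enrichment, at 65.5 ± 6.38, with 175, 196 and 164 fragments.

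In the right segment the highest region, at 94875270 to 94876276, had 187, 163 and 148 fragments, a mean of 166 ± 19.7 (SD, n = 3), and a fold enrichment of 51.2 ± 29.6 with 85.2 in list 1 and 31.1 and 37.1 in lists 2 and 3. In every list it stood below the highest 4 regions of the left segment, and in list 1 it was 1 fragment below the fifth. The region at 107965626 to 107966638 had 153, 156 and 153 fragments, with summits within 4 bp. That at 92552221 to 92553344 had 146, 153 and 143 fragments. The region at 81590039 to 81590872 had 143, 154 and 131 fragments and a fold enrichment of 54.5 ± 2.43. By fold enrichment the right segment was led by the region at 95649512 to 95650398, with 62.1 ± 0.475 and pileups of 126, 119 and 107 fragments. Its input level was at the floor of the peak caller in 1 of the 3 lists. The region at 64010000 to 64010935 came after that at 81590039, with 51.5 ± 14.5, and was also at the floor in 1 list. By mean pileup, 155 ± 5, the region at 95700707 to 95701981, near that at 95649512, came next after the highest of the segment. It had 160, 155 and 150 fragments but a fold enrichment of only 7.13 ± 0.120, beside an input level of 10.9 ± 1.60 times the autosomal mean. No other region of chromosome 3 had an input level of at least 5 times that mean in every list.

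Median width separated the segments little. The strongest peak of each region had a median width of 432, 410 and 388.5 bp in the left segment in lists 1, 2 and 3, against 418, 408 and 383 bp in the right segment. The ratio was 1.02 ± 0.0146 (SD, n = 3, above 1 in 3 of 3 lists, exact sign-flip permutation p = 0.25), and it was 0.995 ± 0.0152 with peaks of 6 fragments or fewer left out, so no direction is given for it. Whole regions, which join the peaks of the lists, had medians of 533 bp in the left segment and 522 bp in the right, with interquartile ranges of 408 to 719.5 bp and 411 to 709 bp. Regions of at least 1000 bp were 9.34% of those in the left segment and 6.43% of those in the right, a ratio of 1.45. No share over the whole series is given for such wide regions. The widest in the left segment, at 14773337 to 14776902, measured 3566 bp, with 145, 140 and 100 fragments at summits up to 1603 bp apart. The widest in the right segment, at 103424140 to 103426058, measured 1919 bp, joined 6 peaks and had only 12, 20 and 8 fragments.

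**Figure D3:**
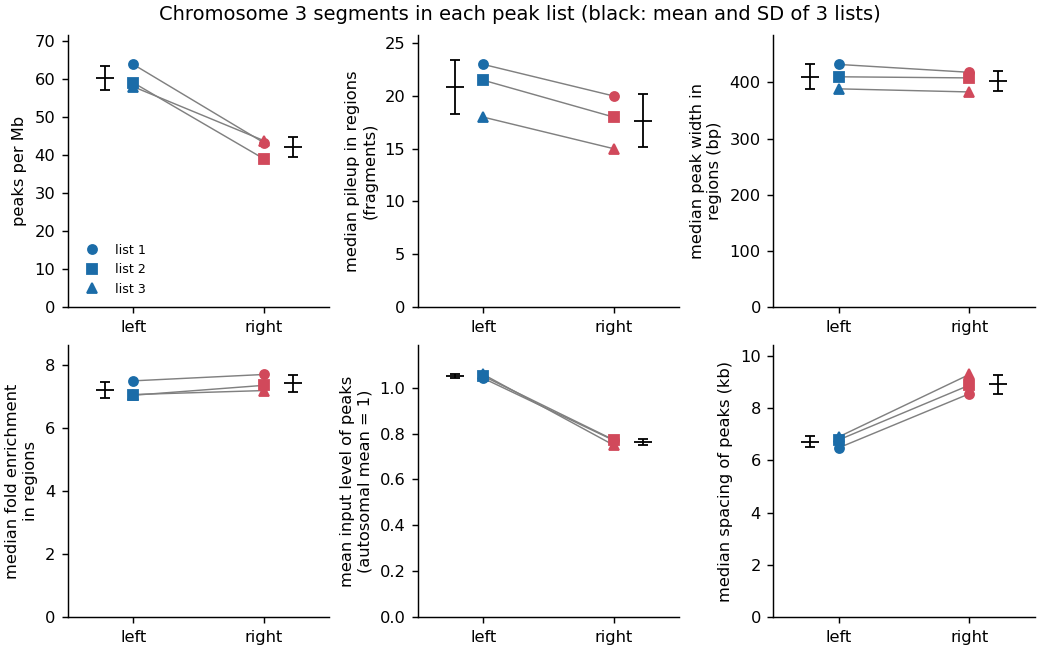
Values of the left (blue) and right (red) segment in lists 1, 2 and 3 (circles, squares, triangles, joined by lines), with the mean and SD of the 3 lists in black: peaks per Mb, median pileup, peak width and fold enrichment of the regions, mean input level of all peaks, and median spacing of peaks in kb. Peak density, pileup and input level are lower in the right segment in all 3 lists and spacing is higher, while width and fold enrichment differ by a few percent.

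The background differed between the segments, and the median fold enrichment differed little. The mean input level of the peaks was 1.04, 1.05 and 1.06 times the autosomal mean in the left segment in lists 1, 2 and 3, and 0.770, 0.772 and 0.749 times in the right segment. The ratio was 1.38 ± 0.0326 (SD, n = 3). It compares means over all peaks, whereas the pileup ratio compares medians over regions, and the cut was placed from the input level. These ratios are therefore not comparable in size. Taken both as medians over all peaks, they were 1.39 ± 0.116 for the input level and 1.23 ± 0.0743 for the pileup (SD, n = 3). The cut placed from the input level limits that comparison too. The median fold enrichment of the regions was 7.49, 7.03 and 7.05 in the left segment and 7.69, 7.34 and 7.18 in the right, a ratio of 0.971 ± 0.0128 that turned to 1.006 ± 0.0185 with the cut moved 5 Mb to the left. All 3 lists put the fold enrichment at 10 or more in 550 regions of the left segment (22.6%) and 283 of the right (20.9%), against 23.5% of the reproducible regions of the whole series, so neither share stood far from that background. In the right segment 14.8 ± 0.383% of peaks had an input level at the floor of the caller, and in the left segment 1.37 ± 0.233%, so more of the right input levels are upper limits.

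Steps in the input level fitted to the separate lists fell within 184 kb of each other. The cut was placed from the input level of these same lists, so their nearness to it is no test of the cut. The fit returns a place on any chromosome, and whether the lists had separate controls is unknown. A single step fitted to the log2 input level of each list fell at 60515138, 60409890 and 60331317 in lists 1, 2 and 3. In bins of 1 Mb the level was 1.09 ± 0.0664 times the autosomal mean just left of the cut and 0.824 ± 0.0304 times just right of it (SD, n = 3). No step was fitted to region density, which varied between 1-Mb bins on both sides. The last 4 bins to the left of the cut held 87, 27, 19 and 50 regions. The first 4 to the right held 11, 29, 28 and 19. In the adjoining bins of 5 Mb the density was 48.2 regions per Mb on the left and 20.6 on the right. The last region before the cut, at 60395374 to 60395941, had 13, 18 and 15 fragments, and the first one after it, at 60406559 to 60407307, had 30, 29 and 24.

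Input level and region density went together within the segments as well as across the cut. Over the 12 left bins of 5 Mb Spearman's rho between them was 0.811, over the 10 right bins it was 0.697, and over all 22 bins it was 0.890. Over bins of 1 Mb rho was 0.714 in the left segment (60 bins) and 0.632 in the right (50 bins). The bins share their libraries and the input level was read only at peaks, so these values are descriptions and carry no p-value. All 12 left bins of 5 Mb had a higher input level than any right bin, with 0.948 to 1.17 times the autosomal mean on the left and 0.685 to 0.820 times on the right. The short bin at the right end had 79.7 regions per Mb at an input level of 0.812, and the densest full 1-Mb bins of the right segment had 67, 61 and 61 regions at levels of 0.767, 0.794 and 0.840. Copy number, mappability and base composition were not measured here, and their part in either quantity was not tested.

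**Figure D4:**
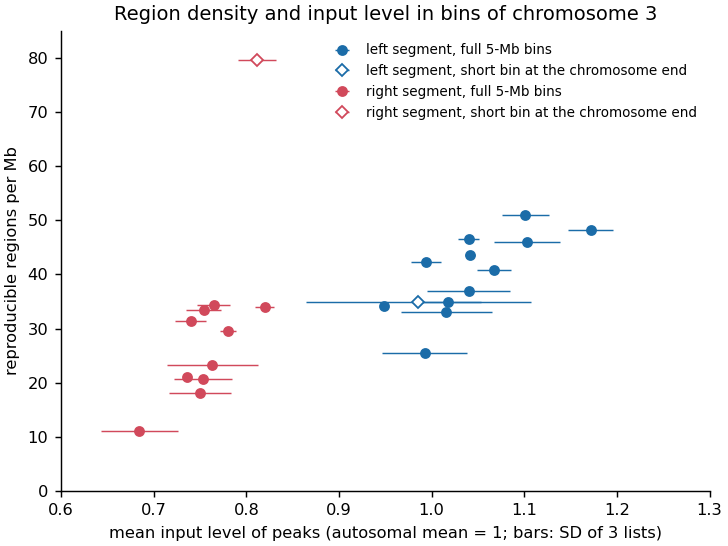
Reproducible regions per Mb against the mean input level of the peaks (autosomal mean = 1, bars are the SD of 3 lists) in 5-Mb bins of the left (blue) and right (red) segment. Open diamonds are the short bins at the chromosome ends. Full bins of the segments do not overlap in input level and do overlap in density, and the short right bin lies at 79.7 regions per Mb.

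Regions were spaced more closely in the left segment and were unevenly spread in both. The median distance between midpoints of neighbouring regions was 9.29 kb in the left segment and 13.3 kb in the right, a ratio of 0.698. The mean distance was 24.8 kb and 37.6 kb. Divided by the mean, the median was 0.374 and 0.354, and the SD was 1.80 and 1.96, so the distances were about as uneven in both segments once their density was taken out. In the separate lists the median distance between neighbouring peaks was 6.72 ± 0.217 kb in the left segment and 8.91 ± 0.371 kb in the right (SD, n = 3), shorter in the left in 3 of 3 lists (exact sign-flip permutation p = 0.25). Another region lay within 10 kb, edge to edge, of 73.9% of the left regions and of 64.2% of the right ones, against 71.7% over the whole series.

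Large clusters were rarer in the right segment than in the left, with an exception at the right end. Runs of regions with gaps of at most 10 kb numbered 1152 in the left segment and 768 in the right, and 18 and 4 of them held at least 10 regions. These large runs contained 9.71% of the left regions and 4.36% of the right ones. No share over the whole series is given for such runs. Regions with no neighbour within 10 kb were 10.5 per Mb in the left segment and 9.53 per Mb in the right, so the lone regions differed little in density. Of the windows of 100 kb, 48 of 604 in the left segment (7.95%) and 16 of 509 in the right (3.14%) held at least 10 regions. Over the series the share was 7.52%, so the left segment was near that background and the right segment below it. Windows without a region were 14.4% of the left and 28.5% of the right ones, and no share over the series is given for them.

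The largest run of the chromosome lay in the right segment, at 111039896 to 111161728. It held 27 regions on 122 kb, with 34, 33 and 31 peaks in lists 1, 2 and 3, and its regions were weak. Its tallest region, at 111129004 to 111129611, had 47, 44 and 45 fragments, and the median of the mean pileups in the run was 13.3. The runs that followed in the right segment held 11 regions each. That at 94850346 to 94895158 contains the strongest region of the segment, and that at 98329664 to 98376192 has a tallest region of 92, 83 and 78 fragments.

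In the left segment the largest runs held 18, 18 and 16 regions, and their tallest regions exceeded those of the run at the right end. The run at 8006721 to 8066938 held 18 regions on 60.2 kb, with a median pileup of 33.3 and a tallest region of 153, 138 and 120 fragments. The run at 57324864 to 57365805 packed 18 regions into 40.9 kb, with a tallest region of 110, 99 and 92 fragments, beside an input level of 1.79 times the autosomal mean. The run at 14770484 to 14835467 held 16 regions and includes the widest region of the segment. By windows of 100 kb, the left segment reached 28 regions at 27700001 to 27800000, with 39, 35 and 34 peaks in lists 1, 2 and 3, and the right segment reached 18 at 111000001 to 111100000.

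The longest stretch without a reproducible region lay in the right segment. It spanned 89673475 to 90543253, was 870 kb long and held 1, 2 and 2 peaks in lists 1, 2 and 3. The next one there, at 70207961 to 70898422, was 690 kb long and held peaks of list 3 alone, 3 of them. The longest in the left segment, at 11491073 to 12251547, was 760 kb long with 1 peak, also of list 3. The second, at 6368075 to 6953028, was 585 kb long and held 1, 1 and 4 peaks.

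Regions with a close neighbour had taller summits than lone ones in both segments. In the left segment the median pileup was 24, 22 and 18 fragments in lists 1, 2 and 3 for regions within 10 kb of another, and 21, 19 and 15 for those 10 to 100 kb away. In the right segment the values were 22, 19.5 and 16 fragments for close regions, and 17, 16 and 13 for those 10 to 100 kb away. The first group was higher within each list in both segments. The left segment kept the higher median in both classes of spacing in all 3 lists. The input level moved with spacing too, with 1.16 ± 0.00808 and 1.02 ± 0.0160 times the autosomal mean for these classes in the left segment and 0.864 ± 0.0127 and 0.774 ± 0.0201 in the right (SD, n = 3), and its part in the difference was not tested. Only 16 left and 22 right regions had no other within 100 kb.

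The lists repeated each other almost as well in the right segment as in the left, with list 3 as an exception. Of the list 3 peaks, 71.3% in the left segment and 62.0% in the right lay in reproducible regions. The shares were 64.3% and 62.7% in list 1, and 70.0% and 69.3% in list 2. Of all joined regions, 48.2% of 5043 in the left segment and 43.6% of 3104 in the right had a peak of every list, against 46.5% over the whole series, so both shares were near that background. Summits of different lists in a region lay a median of 24 bp apart in the left segment and 26 bp apart in the right, and 91.1% and 90.6% lay within 100 bp. Regions are not independent replicates, and across them the mean Spearman's rho of pileup between lists was 0.888 in the left and 0.869 in the right segment. For fold enrichment it was 0.771 and 0.739. For the input level it was only 0.241 and 0.198, so the input level of a single region repeated poorly between lists.

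List 3 held more weak peaks than the other lists in both segments, and more of them in the right than in the left. Peaks found in that list alone numbered 8.63 per Mb in the left segment and 9.89 per Mb in the right, whereas list 1 had 12.2 and 8.57 and list 2 had 8.54 and 5.64. Of these list 3 peaks, 51.6% in the left segment and 79.5% in the right had a pileup of at most 6 fragments. For peaks of list 1 alone the shares were 17.9% and 30.3%, and for list 2 alone 25.2% and 39.4%. In the right segment 31.8% of these list 3 peaks had an input level at the floor, against 27.5% and 17.8% for lists 1 and 2. Peaks of at most 6 fragments were rarer in the left segment in every list, with ratios of 0.687, 0.745 and 0.549, and taller peaks were denser there, with ratios of 1.56, 1.60 and 1.63. With the low peaks left out, the ratio of peak density averaged 1.60 ± 0.0362 and the lists came closer together.

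A single step in the input level was also fitted on chromosomes 2 and 7. Chromosome 3 was set beside them with each cut at its own fitted step, at 52.2 and 31.3 Mb. The fit returns a place on any chromosome, so the input level ratios at these cuts are descriptions and do not test for a step. The pileup enters the computation of the input level, so tests of pileup ratios at these cuts are not independent of how the cuts were placed. The input level changed less on chromosome 3, with a left over right ratio of 1.38 ± 0.0326, against 1.65 ± 0.0291 on chromosome 2 and 1.67 ± 0.0225 on chromosome 7 (SD, n = 3). The ratio of median pileups was also lower on chromosome 3, at 1.18 ± 0.0274, against 1.32 ± 0.0192 and 1.27 ± 0.0468. On the log2 scale these pileup ratios differed from those of chromosomes 2 and 7 by −0.16 ± 0.013 and −0.10 ± 0.083, each lower on chromosome 3 in 3 of 3 lists (exact sign-flip permutation p = 0.25, the smallest possible). The ratio of region density was 1.51 on chromosome 3, 1.55 on chromosome 2 and 1.83 on chromosome 7, where the right part held only 131 regions. Peak density ratios of chromosomes 3 and 2 differed by 0.013 ± 0.054 on the log2 scale, less than the spread between lists (exact sign-flip permutation p = 0.75). Those of chromosomes 3 and 7 differed by −0.24 ± 0.063, lower on chromosome 3 in 3 of 3 lists (exact sign-flip permutation p = 0.25).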

How the data were processed

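The study measured TCF21 occupancy by chromatin immunoprecipitation and sequencing in 3 immunoprecipitated and 3 input samples. Per the submitters' processing notes, Trimmomatic 0.36, STAR 2.5.3a, MACS2, bedtools and HOMER were used, without the role of each. The files are MACS2 peak tables, per the file headers, 1 per immunoprecipitation and not pooled. The pileup is a deposited signal in whole fragments, the fold enrichment is a deposited ratio over the local control, with 1 added to both as pseudocount, significance is deposited as the −log10 of p- and q-values, and the width in bp is deposited as well. The smallest −log10 p is 2.00. The sources used here do not give the genome build, calling threshold or control library. Of 1757 scaffold names 1645 start with AADN04. The gene table at hand is of another assembly, so no gene was placed and no sequence read.

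The input level was computed as (pileup + 1) / fold enrichment − 1 and divided by the mean over autosomal peaks of its list. Peaks overlapping by 1 bp were joined, and the peak with the highest fold enrichment stood for a list in a region. The cut at 60.4 Mb, the measures and the tests were chosen with earlier results of these data known. Regions named are the 5 highest by mean pileup, the 3 highest by fold enrichment, the widest, the 3 largest clusters and windows and the 2 longest gaps of each segment, and those with an input level of at least 5. Lists were compared with exact sign-flip permutation tests (n = 3). Functions were tested on simulated data with Python 3.11.15, numpy 2.4.6 and pandas 2.3.3. The floor of the input level was taken as its smallest value in each list. Depth is unknown, so detection floors and counting intervals of single peaks were not computed. Alternatives varied overlap, q-value, lists required, the cut, each list and low peaks.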

Additional observations from a re-analysis of the deposited data

Results flagged for a closer look

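The left over right ratio of the median peak width was 1.02 on chromosome 3, above 1 in all 3 lists, and 0.929 ± 0.0262 on chromosome 7 (SD, n = 3), below 1 in all 3 lists. On the log2 scale the ratio was higher on chromosome 3 by 0.13 ± 0.038, in 3 of 3 lists (exact two-sided sign-flip permutation test, p = 0.25, the smallest value 3 lists allow). The right part of chromosome 7 held 131 regions, and the ratio on chromosome 3 was below 1 with peaks of 6 fragments or fewer left out.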

How the results depend on the processing

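The limit to peaks above 6 fragments was chosen after the data were seen. The 3783 regions of chromosome 3 became 2360 with a q-value of at most 1e-05, where fewer peaks enter, and 4139 to 4330 without each list. The region density ratio, 1.51, was 1.39 with the cut 5 Mb to the left and 1.47 to 1.53 without each list. The spacing ratio, 0.698, was 0.740 with a reciprocal overlap of 50%, 0.721 with a q-value of at most 1e-05, 0.771 with at least 2 of 3 lists, 0.810 and 0.745 with the cut 5 Mb to the left and right, 0.764 without 5 Mb on either side of the cut, 0.649 with peaks above 6 fragments and 0.685 to 0.712 without each list. Under the same alternatives, in that order, the left minus right difference in the share of regions within 10 kb of another, 9.76 percentage points, was 8.43, 9.29, 6.62, 6.34, 8.27, 8.21 and 11.5, and 8.06 to 8.94 without each list. The input level ratio, 1.38, was 1.26 with the cut 5 Mb to the left and 1.34 with peaks above 6 fragments. The fold enrichment ratio, 0.971, turned to 1.006 with the cut 5 Mb to the left, and was 0.987 both with at least 2 of 3 lists and without 5 Mb on either side of the cut, 0.938 with peaks above 6 fragments and 0.955 to 0.996 without each list. The width ratio, 1.02, turned to 0.995 with peaks above 6 fragments. Causes were not tested. Peak density and pileup ratios stayed above 1 under every alternative run, at 1.33 to 1.60 and 1.11 to 1.23. With 2 lists left the smallest p is 0.5.

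No paired analysis was possible because input samples have no values of their own in the peak lists, and list numbers were not tied to replicate numbers. Depth is unknown and could not be varied, and pileups of a few fragments are coarse.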
